A study of Mus musculus with 6 samples.

Results

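The mitochondrial ribosomal protein genes of the mouse were examined for peaks listed after induction of the transcription factor E2F1 in mouse fibroblasts of the established line NIH/3T3. Members were the protein-coding genes of the RefSeq table of GRCm38.p6 whose symbol begins with Mrpl or Mrps followed by a digit. This rule gave 78 genes of 21900, with 49 named for the large subunit (Mrpl) and 29 for the small subunit (Mrps), on 17 chromosomes. The rule used symbols and no measured value, and 6 Mrp pseudogenes were left out. A gene was counted as carrying a peak when a deposited peak lay inside it or within 1000 bp of it.

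Chromatin immunoprecipitation and sequencing (ChIP-seq) was done in cells with a stably integrated doxycycline-inducible E2F1 construct or with an empty vector (EV). The antibody is not given in the sources used here, so peaks and lists are called E2F1 or EV after the construct. Cells of both constructs were starved of serum for 48 hours and collected after 12 hours of doxycycline, which the labels give at 500 ng/ml while the names of the deposited lists carry another number. Each construct had 2 ChIP-seq libraries with a peak list apiece, and the 2 input samples of EV cells were not analysed here. Both kinds of cell kept their own E2f1 gene, and the labels do not say whether the libraries came from separate cultures, so a p-value measures only the spread between these libraries.

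Mitochondria translate the few proteins of their own genome on ribosomes whose RNAs are made inside the organelle and whose proteins are all encoded in the nucleus, made in the cytosol and imported. Many of these proteins descend from those of bacterial ribosomes, and others are found only in mitochondrial ribosomes. E2F1 is a transcription factor that binds DNA with a DP partner, is held in check by the retinoblastoma protein, and is known for its binding at promoters of genes for DNA replication and the cell cycle.

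The E2F1 lists held 7836 and 8027 peaks in replicates 1 and 2, and the EV lists held 70 and 358. The median fold enrichment of all listed peaks, which is the authors' value of read pileup over local background, was 9.19 and 11.3 in the E2F1 lists and 3.86 and 4.88 in the EV lists. The lowest local background behind a listed peak, the only measure of depth used here, was 1.85, 1.86, 2.20 and 1.18 reads in the same order. Every list ends just above a −log10 p of 10, so weaker sites are missing and a gene without a peak is not a gene without signal.

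Most mitochondrial ribosomal protein genes carried an E2F1 peak, and none carried an EV peak. A peak lay at 53 of the 78 genes in E2F1 replicate 1 (67.9%, Wilson 95% interval 57.0 to 77.3%) and at 59 in E2F1 replicate 2 (75.6%, 65.1 to 83.8%). Over all protein-coding genes the share was 36.9% and 38.3%. The mean number of members with a peak was 56.0 ± 4.24 (SD, n = 2) with induced E2F1, against 0 in each of the 2 EV libraries. The groups did not overlap, but with 2 libraries against 2 the exact two-sided permutation test gives p = 0.333, the smallest value it can reach. The EV lists touched 0.0365% and 0.406% of all protein-coding genes in replicates 1 and 2, so a count of 0 among 78 genes is no result about these genes. The nearest EV peak to any member lay 633244 bp away in replicate 1 and 25760 bp away in replicate 2, the latter beside Mrpl1. Intervals here and below cover counting error only, and genes are not replicates.

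In both E2F1 lists together, 51 of the 78 genes carried a peak (65.4%, 54.3 to 75%), against 34.4% of all protein-coding genes. The peaks of the lists overlapped each other at 50 of these 51 genes, the exception being Mrpl38, a mitochondrion-specific large subunit gene. Its gene spans chromosome 11, 116131817 to 116138868, with the replicate 1 peak at 116138469 to 116138786, inside one end, and the replicate 2 peak at 116130507 to 116131210, outside the other end and nearer to Trim65. A further 10 members (12.8%) had a peak in exactly 1 list, against 6.34% of all genes. The other 17 (21.8%) had none, against 59.2% of all genes. Strong peaks were rarer. A peak with a score at or above the median of its list in both E2F1 lists was found at 18 members (23.1%, 15.1 to 33.6%), against 17.1% of all genes. The members are short, with a median length of 7690 bp against 17146 bp for all protein-coding genes, so their windows covered less sequence than those of most genes.

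**Figure D1:**
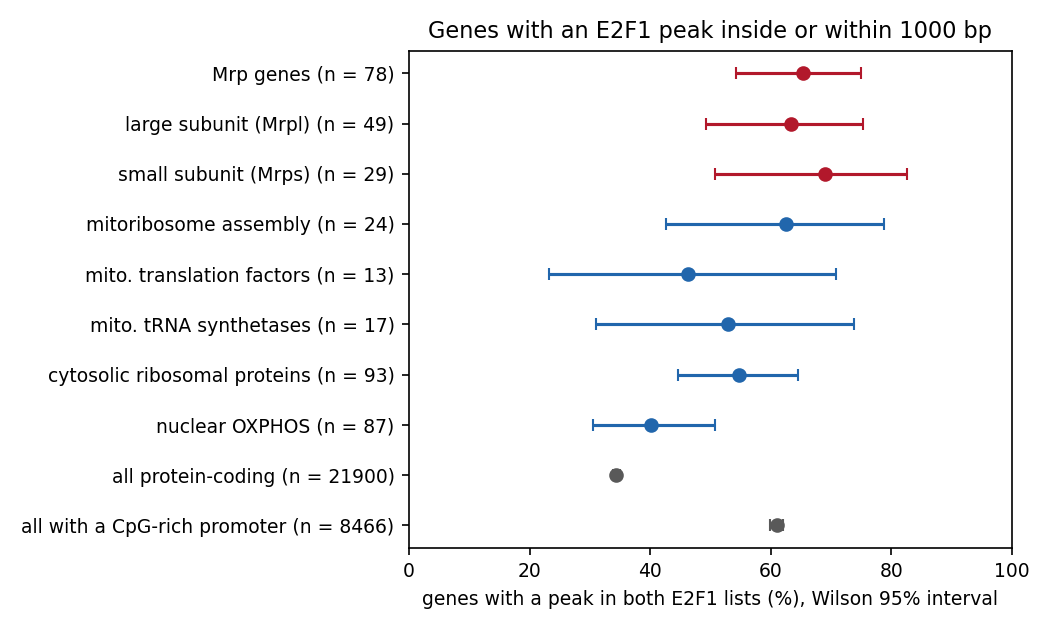
Share of genes with a peak in both E2F1 lists, with Wilson 95% intervals, for mitochondrial ribosomal protein genes (red), related gene lists (blue) and all protein-coding genes or those with a CpG-rich promoter (grey). The 78 Mrp genes sit at 65.4%, above the 34.4% of all genes and beside the 61.0% of genes with a CpG-rich promoter.

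The promoters of these genes are rich in CpG, the dinucleotide common in promoters of widely expressed genes. The RefSeq promoter table, which gives the bases from 250 before a transcription start through the first 50 transcribed, matched 69 of the 78 members and 17492 of all protein-coding genes. A ratio of observed to expected CpG of at least 0.6 was found in 64 of the 69 member promoters (92.8%) and in 48.4% of all promoters. The median ratio was 0.818 for members and 0.577 for all, while the median GC content was 58.3% and 56.3%. Among genes with a CpG-rich promoter, 41 of 64 members had a peak in both lists (64.1%, 51.8 to 74.7%), and the share over all 8466 such genes was 61.0%, inside that interval. For strong peaks the shares were 26.6% of those members (17.3 to 38.5%) and 31.4% of all such genes. Of the 5 members with another promoter, 3 had peaks in both lists, against 11% of all genes with such promoters. This comparison was chosen after the data were seen, and the part of CpG content in the members' share was not tested beyond it.

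When present, the peaks of these genes were of middling strength. For each of the 51 members with peaks in both lists, the strongest peak was ranked by fold within its own list, so that 100 is the strongest peak of the list. The median percentile was 46.1 and 46.4 in E2F1 replicates 1 and 2, beside 57.1 and 57.6 over the 7537 protein-coding genes with peaks in both lists. The median fold of the members was 8.73 in replicate 1, with a range from 4.62 to 41.0, and 10.6 in replicate 2, with a range from 4.75 to 46.0. Over all 7537 genes it was 10.2 and 13.1. Above the 90th percentile of a list stood 2 and 3 of the 51 members (3.92% and 5.88%), against 12.1% of all such genes in each list. Restricted to CpG-rich promoters, the members' median percentiles were 50.2 and 49.1 over 41 genes, against 58.1 and 59.2 over 5161 genes.

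The strongest binding was at Mrpl51, which codes for a large subunit protein without a bacterial counterpart. Mrpl51 (chromosome 6, 125192200 to 125194392) had folds of 41.0 and 34.9 in E2F1 replicates 1 and 2, at ranks 80 and 567, from pileups of 135 and 136 reads. Its peaks spanned 125190865 to 125192594 and 125190965 to 125192784. Mrpl33, a small protein of the large subunit shared with bacteria, followed on chromosome 5, 31613951 to 31622644, with folds of 26.9 and 29.2, at ranks 386 and 882, from 88 and 87 reads. Mrpl40, a mitochondrion-specific protein of the large subunit on chromosome 16, 18872018 to 18876637, had folds of 17.2 and 46.0, at ranks 1292 and 263, from 94 and 141 reads. The value of 46.0 was the highest fold of any member, while in replicate 1 Mrpl40 stood behind 5 other members.

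The promoters of these 3 genes and of the alphabetically first 2 members with a promoter entry and no listed peak, Mrpl1 and Mrpl24, are shown. Members with strong peaks and members without a listed peak can so be compared. They come from RefSeq, build GRCm38.p6, run 5′ to 3′ on the strand of the gene, and end 49 bases after the transcription start base. Capitals mark any of the short strings searched for below. Mrpl51 lies at chr6:125191950-125192249 (plus strand), Mrpl33 at chr5:31613701-31614000 (plus), Mrpl40 at chr16:18876588-18876887 (minus), Mrpl1 at chr5:96209865-96210164 (plus) and Mrpl24 at chr3:87919294-87919593 (plus).
Mrpl51: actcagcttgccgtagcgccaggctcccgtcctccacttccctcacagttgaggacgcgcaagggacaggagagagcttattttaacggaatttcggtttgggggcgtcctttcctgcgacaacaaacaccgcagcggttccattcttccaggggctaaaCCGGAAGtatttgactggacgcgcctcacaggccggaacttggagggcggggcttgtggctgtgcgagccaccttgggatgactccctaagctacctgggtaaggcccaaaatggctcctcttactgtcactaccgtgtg
Mrpl33: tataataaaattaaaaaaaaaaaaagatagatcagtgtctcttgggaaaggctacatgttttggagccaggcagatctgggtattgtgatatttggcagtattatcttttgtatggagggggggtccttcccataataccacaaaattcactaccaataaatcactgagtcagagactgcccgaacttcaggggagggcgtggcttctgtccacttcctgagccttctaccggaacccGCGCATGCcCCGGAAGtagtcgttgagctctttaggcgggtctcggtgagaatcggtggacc
Mrpl40: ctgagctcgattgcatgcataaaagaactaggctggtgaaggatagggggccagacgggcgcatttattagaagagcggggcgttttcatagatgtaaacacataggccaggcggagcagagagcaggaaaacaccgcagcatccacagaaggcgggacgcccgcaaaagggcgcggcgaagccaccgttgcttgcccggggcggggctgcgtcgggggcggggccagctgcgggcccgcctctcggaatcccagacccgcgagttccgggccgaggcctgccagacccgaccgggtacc
Mrpl1: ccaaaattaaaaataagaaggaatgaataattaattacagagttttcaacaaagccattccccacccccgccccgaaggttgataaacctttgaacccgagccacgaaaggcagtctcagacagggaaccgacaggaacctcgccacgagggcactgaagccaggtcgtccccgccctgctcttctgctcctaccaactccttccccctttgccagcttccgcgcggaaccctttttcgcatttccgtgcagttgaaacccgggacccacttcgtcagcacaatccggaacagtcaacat
Mrpl24: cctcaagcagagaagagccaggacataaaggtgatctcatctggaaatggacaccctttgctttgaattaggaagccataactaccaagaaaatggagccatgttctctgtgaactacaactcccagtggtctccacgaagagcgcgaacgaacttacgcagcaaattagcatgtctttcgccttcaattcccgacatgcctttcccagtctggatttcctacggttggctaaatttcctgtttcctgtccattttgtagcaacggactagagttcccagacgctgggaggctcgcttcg
The capitals are CCGGAAG in Mrpl51, and GCGCATGC followed by CCGGAAG in Mrpl33. None of the searched strings occurs in the Mrpl40 window, one of the most strongly bound, nor in those of Mrpl1 and Mrpl24. GC content was 57.7%, 47%, 64.7%, 52.7% and 48.3% in the order printed, so the window of Mrpl33, a gene with strong peaks, had the lowest. The Mrpl33 summits lay outside this window in both lists, 116 and 121 bp downstream of the start. At Mrpl51 the summit of replicate 2 was outside it too, 516 bp upstream.

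The other members in the top 10 by mean percentile over both lists had folds between 11.7 and 30.7. Mrpl13, the counterpart of a conserved bacterial protein, had 18.8 and 30.7. Mrpl18, whose bacterial counterpart binds 5S ribosomal RNA, had 16.2 and 25.7. The mitochondrion-specific large subunit proteins Mrpl42 and Mrpl43 had 20.8 and 17.7, and 14.6 and 19.3. Of the small subunit, Mrps24 had 19.9 and 20.2, Mrps18b had 17.1 and 14.7, and Mrps7, a conserved protein of the head of the subunit, had 11.7 and 20.7. Large subunit genes took 7 of the 10 places, including the first 5. They were also 49 of the 78 members and 31 of the 51 with peaks in both lists.

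At the lower end, the peaks were weak in both lists. Mrps9, a conserved small subunit protein, had a fold of 5.14 in both lists, from pileups of 20 and 28 reads. Mrpl53 had 5.78 and 5.28, Mrpl38 had 5.63 and 5.65, Mrps34 had 6.62 and 4.75, and Mrpl2, which codes for a protein near the peptidyl transferase centre, had 6.38 and 5.14. These 5 were the weakest of the 51 by mean percentile, and each stood below percentile 30 in both lists.

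**Figure D2:**
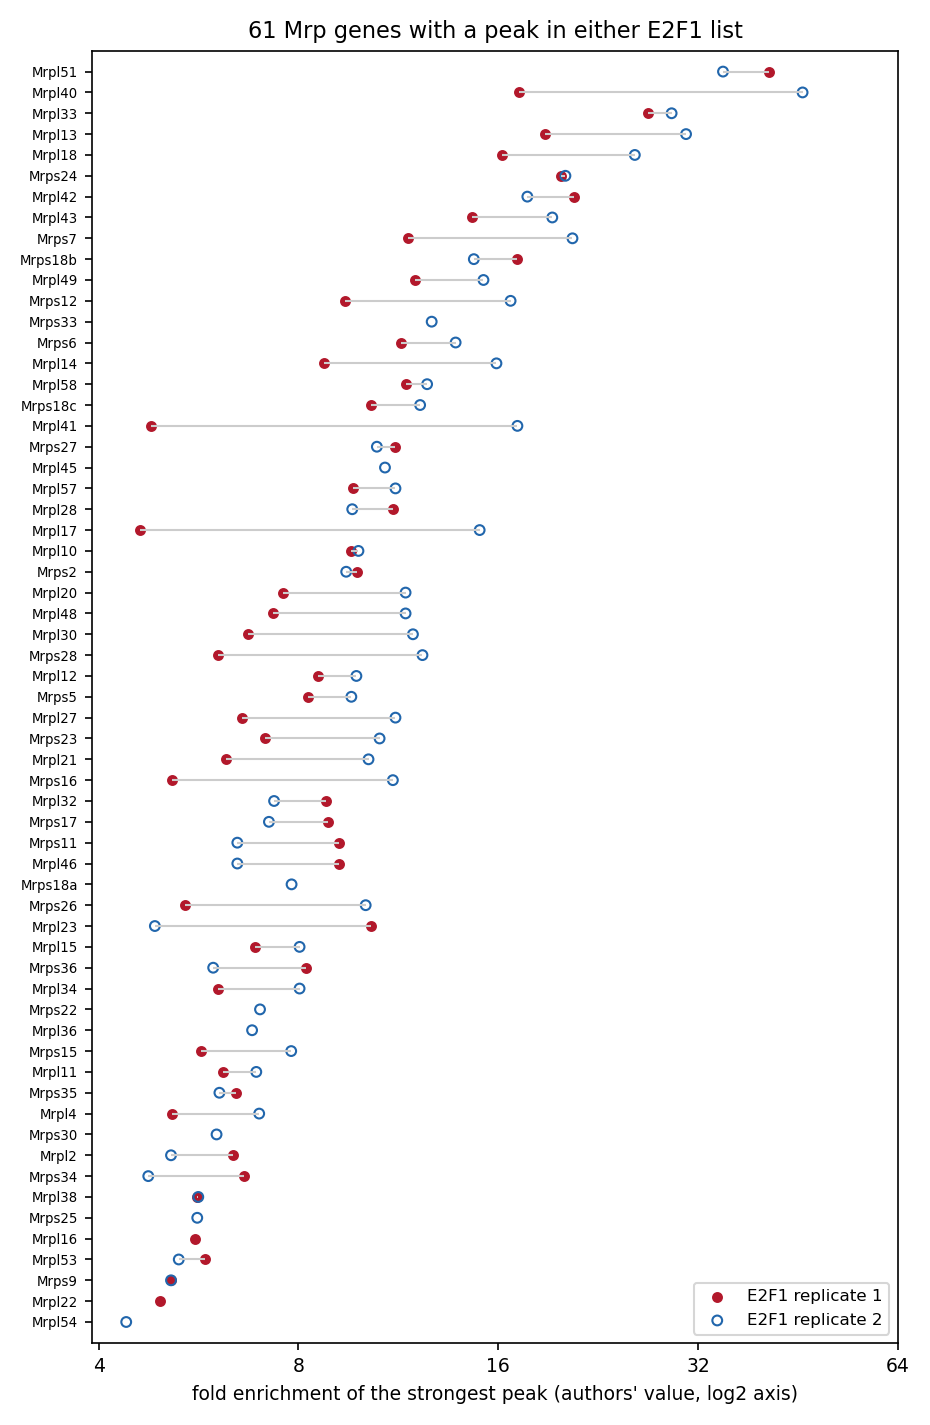
Fold enrichment of the strongest peak at each of the 61 mitochondrial ribosomal protein genes with a peak in either E2F1 list, on a log2 axis, with E2F1 replicate 1 as filled and replicate 2 as open points joined by a line. Mrpl51, Mrpl40, Mrpl33 and Mrpl13 lead, and genes with 1 point have a peak in 1 list only.

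The lists ordered the members only loosely alike. Spearman's rho between the percentiles of replicates 1 and 2 was 0.57 over the 51 members and 0.71 over all 7537 genes, as a description across genes that share the same libraries. The percentiles of a gene differed by a median of 14.1 points, and 8 members differed by more than 30. The widest gap was at Mrpl41, with folds of 4.80 and 17.1 and percentiles of 5.27 and 69.8. Its pileup was 26 reads over a background of 4.63 in replicate 1 and 51 reads over 2.05 in replicate 2. Mrpl17, a conserved large subunit protein, went the same way, with folds of 4.62 and 15. Mrpl23, which lines the exit of the peptide tunnel, went the other way, with folds of 10.3 and 4.86 and a background that was 2.78 reads in replicate 1 and 5.17 in replicate 2. Pileups were 25 and 42 reads at Mrpl17 and 38 and 29 reads at Mrpl23 in replicates 1 and 2. At all 3 genes the higher fold came with both the higher pileup and the lower local background. Both were solved from the fold and its p-value, so they are no independent account of it. Their part in these gaps was not tested. In all, 15 members were above the middle of both lists, 21 below it in both, and 15 on different sides.

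**Figure D3:**
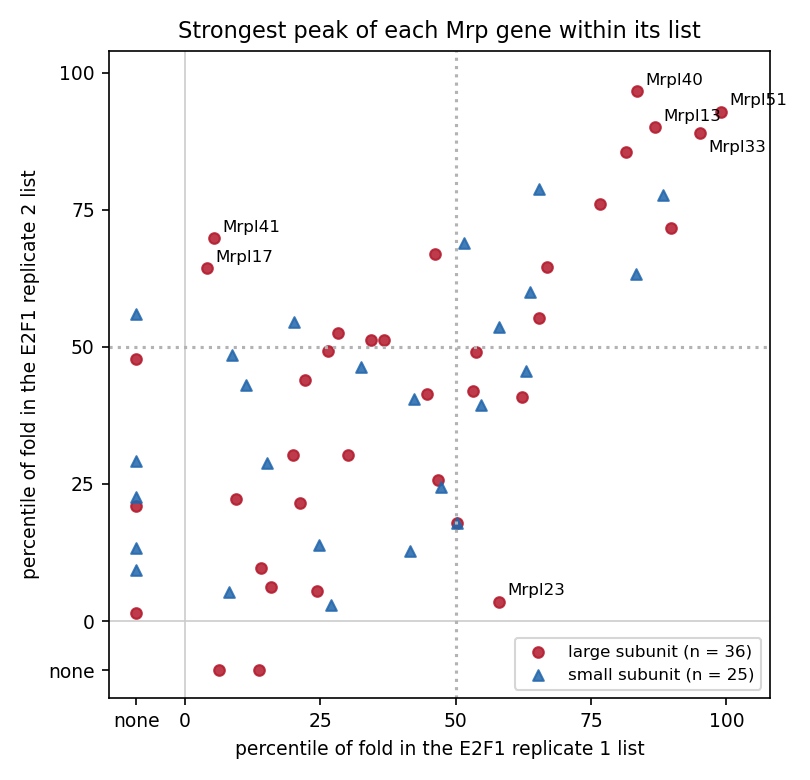
Percentile of the fold of each gene's strongest peak in the E2F1 replicate 1 list (x) and the E2F1 replicate 2 list (y), for 36 large subunit genes (circles) and 25 small subunit genes (triangles), with genes lacking a peak in a list placed at "none". Mrpl51, Mrpl33, Mrpl40 and Mrpl13 stand near the top of both lists, and Mrpl41, Mrpl17 and Mrpl23 are far from the diagonal.

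The 10 members with a peak in exactly 1 list mostly had weak ones. In replicate 1 only, these were Mrpl16, with a fold of 5.59, and Mrpl22, with 4.94. In replicate 2 only, they were Mrps33 (12.7), Mrpl45 (10.8), Mrps18a (7.81), Mrps22 (7.0), Mrpl36 (6.81), Mrps30 (6.02), Mrps25 (5.63) and Mrpl54 (4.40). Mrps33 alone lay above the middle of its list, at percentile 56.0. Of the 8 found only in replicate 2, 5 were small subunit genes by symbol, as were 29 of the 78 members. Among these 5, the proteins of Mrps18a and Mrps30 sit in the large subunit.

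The 17 members without a peak in either list were spread over both subunits and many functions. Of the large subunit they were Mrpl1, Mrpl3, Mrpl9, Mrpl19, Mrpl24, Mrpl35, Mrpl37, Mrpl39, Mrpl44, Mrpl47, Mrpl50, Mrpl52 and Mrpl55, and of the small subunit Mrps10, Mrps14, Mrps21 and Mrps31. Mrpl3 is a core protein conserved from bacteria, while Mrpl44 is related to double-strand RNA nucleases. Mrpl22, with its peak 868 bp away in replicate 1, was the member just inside the window of 1000 bp, and Mrpl52, with a peak 1924 bp away in replicate 1, was the next outside it. Mrpl55 followed at 2171 and 2049 bp in replicates 1 and 2. For 12 members the nearest peak of either E2F1 list was more than 10000 bp away.

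The subunits did not differ beyond counting error. A peak in both lists lay at 31 of 49 large subunit genes (63.3%, 49.3 to 75.3%) and at 20 of 29 small subunit genes (69.0%, 50.8 to 82.7%). The difference, large minus small, was -5.70 percentage points, with an interval from -27.3 to 15.9. Strong peaks went the other way, with 13 of 49 (26.5%) in the large and 5 of 29 (17.2%) in the small subunit. Median percentiles were 46.1 and 49.2 for the large subunit and 44.7 and 44.3 for the small subunit in replicates 1 and 2. Placing Mrps18a and Mrps30 with the large subunit, where their proteins sit, and leaving out Mrps36, which belongs to a metabolic enzyme complex, gave 60.8% and 73.1%.

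Members were also split into conserved genes, whose proteins keep the name of a bacterial ribosomal protein, and all others. Of 45 conserved genes, 31 had peaks in both lists (68.9%, 54.3 to 80.5%), and of 33 others, 20 had (60.6%, 43.7 to 75.3%). The other genes of the small subunit differed most between lists, with 8 of 14 in replicate 1 and 13 of 14 in replicate 2, while the conserved genes of the small subunit gave 12 of 15 in each. The other genes of the large subunit had the highest median percentiles, 59.5 and 59.9 over 12 genes, beside 36.8 and 42.0 over 19 conserved genes of that subunit. These subgroups are small and the differences were not tested.

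Genes of named parts of the ribosome gave mixed pictures. Mrpl10 and Mrpl12, which form the stalk that recruits translation factors, both had peaks in both lists, with folds of 9.59 and 9.85 for Mrpl10 and of 8.55 and 9.78 for Mrpl12. Around the polypeptide exit, Mrpl23 had peaks in both lists, Mrpl22 in replicate 1 only, Mrpl45, which anchors the ribosome to the inner membrane, in replicate 2 only, and Mrpl24 in neither. Of the Mrps18 paralogues, related to the same bacterial protein though only Mrps18c was counted as conserved above, Mrps18b and Mrps18c had peaks in both lists, with folds of 10.3 and 12.2 at Mrps18c, and Mrps18a had its peak in replicate 2 only. Mrps12, whose bacterial counterpart lies at the decoding centre, had folds of 9.39 and 16.7. Mrpl58, a peptidyl-tRNA hydrolase built into the large subunit, had 11.6 and 12.5. It carried more than 1 peak in replicate 1, as did Mrpl34 and Mrpl2 in replicate 2, and no member did so in both lists.

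Most of the peaks sat near transcription starts. The distances were taken for members only, so nothing here sets the members apart from other genes with a peak. For the members with a start in the promoter table, the summit of the strongest peak lay a median of 144 bp from the nearest start in replicate 1 and 106 bp in replicate 2. It was within 250 bp of a start at 36 of 46 genes in replicate 1 and at 46 of 51 in replicate 2. Summits fell on either side, with 24 upstream and 22 downstream in replicate 1, and 24 upstream, 26 downstream and 1 on the start in replicate 2. The few summits over 1000 bp from a start were all closer to another gene's boundary. The peak counted for Mrpl22 in replicate 1 was 3239 bp upstream of its start and 129 bp from Gemin5. That of Mrpl36 in replicate 2 was 2601 bp upstream and 74 bp from Ndufs6. At Mrpl2 in replicate 1 the summit was 4141 bp downstream of the start, 246 bp past the end of the gene and 40 bp from Cul7. Mrpl34 had its summits 1446 and 1349 bp upstream, over 1000 bp from any protein-coding gene boundary, the nearest being that of Abhd8 at 1227 and 1130 bp.

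**Figure D4:**
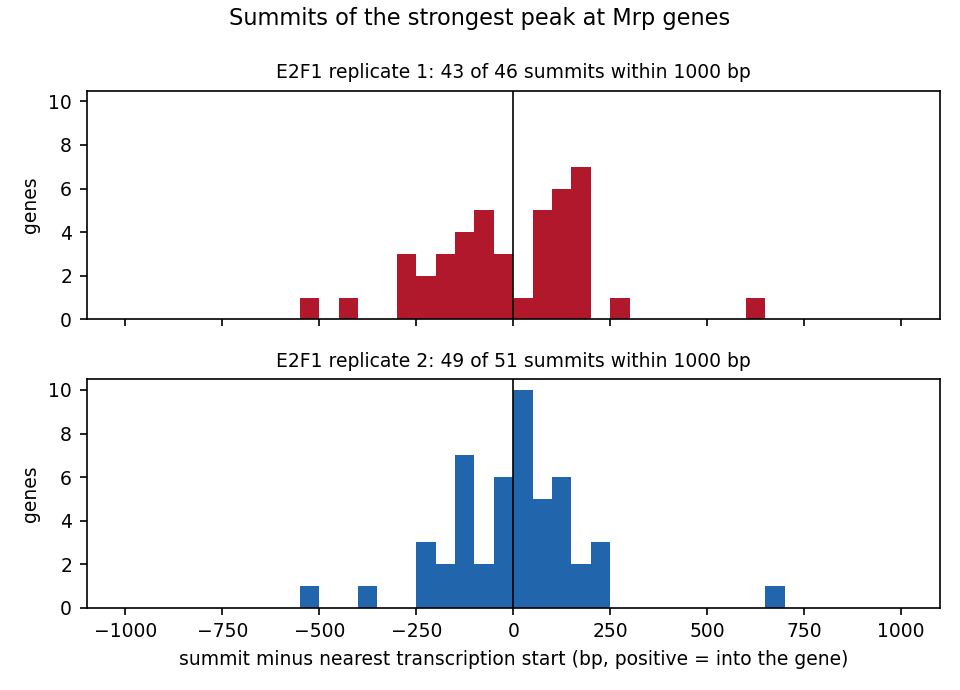
Distance from the summit of each gene's strongest peak to the nearest transcription start in bp, in bins of 50 bp, with positive values into the gene, for E2F1 replicate 1 (top) and E2F1 replicate 2 (bottom). The plot holds 43 of 46 and 49 of 51 summits, those within 1000 bp, and most lie within 250 bp of the start.

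Many of these peaks lay close to a neighbouring gene as well. The strongest peak was also within 1000 bp of another protein-coding gene at 32 of 53 members in replicate 1 (60.4%) and at 34 of 59 in replicate 2 (57.6%), against 30.6% and 30.5% of all genes with a peak. With or without a peak, 47 of the 78 members and 6936 of all 21900 genes had another protein-coding gene within 1000 bp. The part of gene spacing in the shares of such peaks was not tested. At 15 members in each list, the boundary of another gene was closer to the summit than that of the member. Of 47 members with another protein-coding gene within 1000 bp, 35 had peaks in both lists (74.5%, 60.5 to 84.7%), and of 31 members without one, 16 had (51.6%, 34.8 to 68.0%). The same shares over all genes were 49.0% and 27.7%. The median percentile was 50.2 for shared peaks and 30.1 for the others in replicate 1, and 48.8 and 30.2 in replicate 2. For members with peaks in both lists, it was 50.2 with a gene within 1000 bp and 33.4 without one in replicate 1. In replicate 2 these medians were 48.6 and 36.6. Over all genes with peaks in both lists, the same medians were 58.2 and 56.4 in replicate 1, and 56.6 and 58.6 in replicate 2. This comparison too was chosen after the data were seen.

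A divergent neighbour, transcribed from the opposite strand with its start within 1000 bp, stood beside 25 of the 69 members with a known start, a comparison likewise chosen after the data were seen. Of all 17492 protein-coding genes with a known start, 1681 had such a neighbour. Of the 25 members, 22 had peaks in both lists (88.0%, 70.0 to 95.8%), against 68.6% of all genes with a divergent neighbour. Of the 44 members without one, 22 had peaks in both lists (35.8 to 64.2%), against 31.6% of all such genes. All 25 members with a divergent neighbour had a CpG-rich promoter, and over all genes with both features the share was 72.4%. Of the 39 members with a CpG-rich promoter and no divergent neighbour, 19 had peaks in both lists (48.7%, 33.9 to 63.8%), and over all genes of that kind the share was 58.6%, inside the interval.

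**Figure D5:**
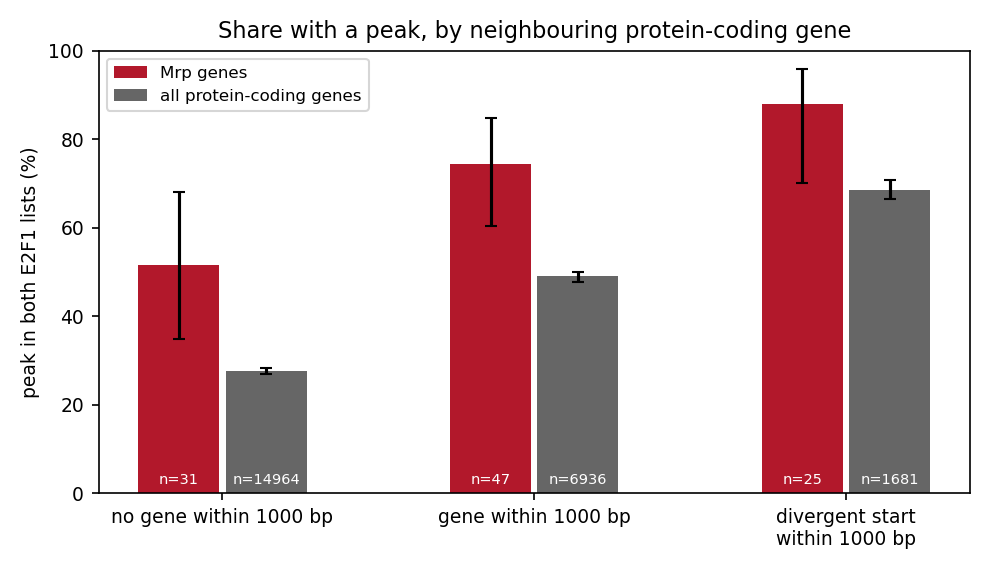
Share of genes with a peak in both E2F1 lists, with Wilson 95% intervals, by whether another protein-coding gene or a divergent start lies within 1000 bp, for mitochondrial ribosomal protein genes (red) and all protein-coding genes (grey). Mrp genes rise from 51.6% with no neighbour to 88.0% with a divergent one, and all genes from 27.7% to 68.6%.

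The neighbours include genes of the cell cycle and of DNA metabolism. Mrpl51 starts 614 bp from the listed start of Ncapd2, a subunit of condensin. The summits lay 399 and 98 bp from that start and 215 and 516 bp from the start of Mrpl51 in replicates 1 and 2. Measured to gene boundaries, the summits lay 115 and 416 bp from Ncapd2, closer than to Mrpl51 in both lists. Measured to listed starts, the member was the closer gene of the pair at 12 of the 22 members with peaks, in each list. Its neighbour was closer at 10. Mrpl40 starts 113 bp from Hira, a histone chaperone, with the summit 16 bp from Hira in replicate 1 and 25 bp from Mrpl40 in replicate 2. At Mrpl13, which has no entry in the promoter table, the summits lay 88 and 89 bp from the boundary of Mtbp, a gene linked to the firing of replication origins, and 180 and 181 bp from the boundary of Mrpl13. Mrps18c starts 159 bp from the DNA helicase gene Helq, Mrpl57 starts 76 bp from Ska3 of the kinetochore, and Mrpl27 starts 48 bp from the endonuclease subunit gene Eme1. These data cannot assign such a peak to either gene of a pair.

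Some divergent partners serve mitochondria as well. Mrpl43 starts 116 bp from Twnk, the helicase of mitochondrial DNA, with folds of 14.6 and 19.3 at the shared peak. Mrps12 starts 147 bp from Sars2, the mitochondrial seryl-tRNA synthetase. Mrpl46 and Mrps11, members of the large and the small subunit, start 42 bp apart and shared 1 peak in each list, with folds of 9.21 and 6.47. Of the members with a divergent neighbour, those without any peak were Mrpl37 beside Cyb5rl, Mrpl47 beside Ndufb5, a subunit of respiratory complex I, and Mrpl50 beside Zfp189. Among members with no neighbour in the window, Mrpl33, Mrps24 and Mrpl42 had the strongest peaks, with summits 89 to 155 bp from their own starts.

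The promoter windows were searched on both strands for short strings of known factors. E2F strings were TTTCCCGC, TTTGGCGC, TTTCGCGC and TTTGCCGC, with TTCCCGCC, TTGGCGGG and TTCGCGCC as a second set that can overlap the first and was counted with it once per promoter. An E2F string was found in 6 of 69 member promoters (8.70%) and in 6.48% of all promoters, and in 11.1% of all CpG-rich ones. All 6 were among the 40 member promoters that peaks of both lists overlapped (15%), against 13.3% of all promoters so overlapped. None of the 19 member promoters without an overlapping peak held one, against 3.11% of all such promoters. A match is no evidence of a site, and 34 of the 40 bound windows had none of these letters. The windows end 49 bases after the start, however, and summits lay downstream of the start at 22 of 46 members in replicate 1. In replicate 2 they did so at 26 of 51. Many of these summits lay beyond the window, so the sequence under them was not searched.

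The stretches around the 6 E2F strings are shown, since these member promoters are overlapped by peaks of both lists and hold such letters. At 5 of them the string lay inside the peaks of both lists, but at Mrps36 the peaks reached only 11 and 10 bp into the window and ended 92 and 93 bp short of the string. Capitals mark the E2F string, and each run has 20 bases on either side, 5′ to 3′ on the strand of the gene (RefSeq, GRCm38.p6). They lie at chr17:12916251-12916299 (minus) for Mrpl18, chr19:3282931-3282978 (plus) for Mrpl21, chr7:28741928-28741976 (minus) for Mrps12, chr5:100798641-100798688 (plus) for Mrps18c, chr11:88204166-88204213 (plus) for Mrps23 and chr13:100744692-100744739 (minus) for Mrps36.
Mrpl18: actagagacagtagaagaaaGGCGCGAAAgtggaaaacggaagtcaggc
Mrpl21: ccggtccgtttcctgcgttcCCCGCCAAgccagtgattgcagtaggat
Mrps12: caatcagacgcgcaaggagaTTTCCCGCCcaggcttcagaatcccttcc
Mrps18c: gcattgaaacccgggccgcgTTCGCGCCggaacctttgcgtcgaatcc
Mrps23: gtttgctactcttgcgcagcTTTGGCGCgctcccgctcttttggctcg
Mrps36: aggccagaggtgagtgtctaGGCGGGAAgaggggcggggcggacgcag
The string at Mrps23 had its centre 24 and 41 bp from the summits of replicates 1 and 2, and that at Mrpl21 was 57 and 16 bp away. At Mrps12 the distances were 144 and 109 bp, at Mrps18c 176 and 48 bp, and at Mrps36 198 and 279 bp. At Mrpl18 the distance was 27 bp in replicate 2 and 325 bp in replicate 1. Mrps23 had folds of 7.11 and 10.6, Mrpl21 of 6.22 and 10.2, and Mrps36 of 8.20 and 5.95, so the strings were not confined to strongly bound genes.

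Strings of other factors were more frequent in these promoters than those of E2F. CCGGAAG, read by ETS factors such as GABPA, was found in 24 of 69 member promoters (34.8%, 24.6 to 46.6%), against 11.9% of all promoters and 19.9% of all CpG-rich ones. It was in 17 of the 40 bound promoters (42.5%) and in 4 of the 19 without a peak (21.1%). Over all promoters these shares were 21.5% and 6.23%. ATGGCGGC, the string of YY1, was found in 12 members (17.4%, 10.2 to 28%), against 3.21% of all and 5.93% of CpG-rich promoters. It was in 5 of the 40 bound members (12.5%) and in 5 of the 19 without a peak (26.3%), while over all promoters the shares ran the other way, 7.36% and 1.11%. GCATGCGC, the string of NRF1, was found in 8 (11.6%, 5.99 to 21.2%), against 3.61% of all and 6.50% of CpG-rich promoters. GABPA, NRF1 and YY1 are known regulators of nuclear genes for mitochondrial proteins.

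Other genes of mitochondrial protein synthesis were compared from lists given by name, against the same 34.4% of all protein-coding genes. Of the mitochondrial ribosomal proteins with other symbols, Dap3, Ptcd3, Chchd1 and Aurkaip1 had peaks in both lists, with folds from 9.35 to 21.6, and Gadd45gip1 had one in replicate 1 only. Of 24 assembly factors, 15 had peaks in both lists (62.5%, 42.7 to 78.8%), led by Tfb1m, a methyltransferase of the small ribosomal RNA, with folds of 22.1 and 40.2, and by Mterf3, with 24.6 and 24.0. Translation factors gave 6 of 13 (46.2%, 23.2 to 70.9%), an interval that holds the share of all genes, with Tsfm at 14.3 and 9.45 and no peak at Tufm, the elongation factor it serves. Mitochondrial tRNA synthetases gave 9 of 17 (52.9%, 31.0 to 73.8%), whose interval holds it as well. Of 4 genes of mitochondrial transcription, Tfam and Tfb2m had peaks in both lists, Polrmt in replicate 1 only and Tefm in neither.

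Among larger lists, the cytosolic ribosomal protein genes gave 51 of 93 (54.8%, 44.7 to 64.6%), an interval that overlapped that of the members. That list was taken by symbol and holds related genes and retrocopies. Leaving out 10 of them without a peak in both lists, such as Rpl7l1, Rps19bp1, Rpl10l, Rpl3l and Rps27rt, gave 51 of 83 (61.4%, 50.7 to 71.2%). Related genes with peaks in both lists, such as Rpl22l1, Rpl36al and Rps27l, were kept, so this choice could only raise the share. Both reduced lists were chosen after the values were seen. Nuclear genes of oxidative phosphorylation gave 35 of 87 (40.2%, 30.6 to 50.7%), an interval that holds the 34.4% of all genes and lies below that of the members. That list, also taken by symbol, includes 10 tissue-restricted or duplicated genes such as Cox4i2, Cox8c and Ndufb4b, none of them with a peak. Without them it gave 35 of 77 (45.5%, 34.8 to 56.5%). Only this reduced interval overlapped that of the members, and it no longer held the 34.4% of all genes. Neither list had a peak in an EV library. Among genes with peaks in both lists, median percentiles were 42.9 and 39.0 for cytosolic ribosomal proteins and 40.3 and 52.0 for oxidative phosphorylation, beside 46.1 and 46.4 for the mitochondrial ribosomal proteins. The differences between lists were not tested.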

How the data were processed

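The 4 deposited peak lists have 10 columns. Per the submitters' processing notes, FastQC, Trimmomatic, Bowtie2, MACS2, ChIPseeker and build mm10 were used; versions, antibody and the control of each list are not given in the sources used here, and the labels' protocols describe RNA libraries. The deposited score is a whole number near 10 times the −log10 q-value. The fold enrichment of each deposited peak is a ratio of pileup to local background. The authors also deposited −log10 values of p and of q. Each list was taken as called per sample.

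From these, pileups and backgrounds were solved, with a pseudocount of 1 and a Poisson tail. Whole pileups, within 5% of a step, resulted for 99.99% and 99.98% of the E2F1 peaks and for 95.71% and 99.72% of the EV peaks in replicates 1 and 2. The solver and the overlap counts were tested on simulated data. Genes came from RefSeq (GRCm38.p6), and the strongest peak of a gene is that with the highest fold. Folds were ranked only within a list. Shares carry Wilson 95% intervals, with no test over genes; peak numbers were compared by an exact permutation test over libraries. Of the symbols of the gene lists, Wbscr16, an older name of Rcc1l, was not found. Named genes were the 10 highest and 5 lowest members by mean percentile, those with a peak in 1 list or none, those at the edge of the window, and those beside another gene. The members and lists were chosen with earlier results of these data known. Python 3.11.15, numpy 2.4.6, scipy 1.17.1 and pandas 2.3.3 were used.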

Additional observations from a re-analysis of the deposited data

How the results depend on the processing

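Over 42 alternative settings of 5 results, 35 stayed within the limits set for no change and 7 moved. The share of members with peaks in both E2F1 lists, 65.4%, became 23.1% when only peaks with a score at or above the median of their list were counted, against 17.1% of all genes, and the difference in members with a peak between E2F1 and EV libraries then fell from 56.0 to 20. The share was 51.6% for members with no other protein-coding gene within 1000 bp, against 27.7% of all such genes. For members with a CpG-rich promoter it was 64.1% and was counted as unchanged, although the share over all such genes was 61.0%. An unchanged share of members is thus not an unchanged contrast with all genes. From 1 list in place of 2 the share ran from 67.9% to 75.6%, against 36.9% to 38.3% of all genes. Windows of 0, 500 and 2500 bp gave 59.0%, 64.1% and 66.7%, and a reciprocal overlap of 50% gave 57.7%. Over all genes, the shares at these settings lay between 31.8% and 35.5%. The median percentile of the mean over both lists, 40.4, became 40.9 within 1000 bp of a gene boundary, and 46.1 to 46.4 from 1 list. The difference between subunits ran from -16.8 to 9.29 percentage points and changed sign with strong peaks only, which was still counted as unchanged. With the replicate number as a block (replicate block) the paired difference in members with a peak was again 56.0, with an exact sign-flip p = 0.5, the smallest that 2 pairs allow; nothing in the labels says that the numbers pair the libraries. Depth is known only through the solved pileups, and sites below the authors' threshold cannot be compared.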
